A study of Mus musculus with 18 samples.

Results

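The genes described here encode actin, the proteins that handle it and the transcription factor SRF, and they were read in J774.1 cells, a mouse macrophage-like cell line, by RNA-seq. The list was given by name, as actins, actin-binding genes and SRF-regulated cytoskeletal genes, and its rule uses no expression value, although it was chosen with earlier results of these data known. Of its 45 genes, 43 were found by symbol among the 18204 genes of the deposited table and all 43 were tested, and Marcks and Cnn3 were not analysed here. The study compared wildtype cells with Ctbp1/2 double knockout cells (dKO), which carry frameshifts with premature stops in both genes of the CTBP transcriptional co-repressors, and asked which effects of 2 CTBP dehydrogenase inhibitors need CTBP. Cells of each genotype received vehicle (PBS/DMSO), MTOB at 1.5 mM or 4-Cl-HIPP at 250 µM for 4 h, with 3 samples in each of the 6 groups and 18 samples in all. MTOB is a keto acid of methionine salvage and 4-Cl-HIPP is a chlorinated phenyl acid with a hydroxyimino group in place of the keto group, and both are substrate-competitive inhibitors. One vehicle group per genotype served both inhibitors, so the 2 inhibitor comparisons of a genotype share their controls. MTOB was dissolved in PBS and 4-Cl-HIPP in DMSO. Whether each inhibitor sample received both solvents is not stated, so a solvent effect may not be told apart from an inhibitor effect. The knockout was made by CRISPR in J774.1 cells and grown from clonal colonies, so genotype cannot be told apart from a difference between clones.

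Actin cycles between a monomer pool and filaments. Thymosins and profilin hold monomers, the Arp2/3 complex, formins and Ena/VASP proteins build branched or straight filaments, cofilin and gelsolin cut them, and crosslinkers, tropomyosins and myosin II turn them into a contractile network tied to adhesion sites. When monomers become scarce, the MRTF co-activators leave them, enter the nucleus and work with SRF, which binds the CArG box in the promoters of Actb, Actg1, Vcl and many other cytoskeletal genes. Macrophages use this machinery for ruffling, phagocytosis and migration.

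The CArG box, a pair of C and a pair of G around 6 bases that are each A or T, was searched in the 250 bases before the RefSeq start site of each gene. Windows were given for 40 of the 43 genes, and Actb, Coro1b and Diaph1 had no entry. The box was present for 7 of the 40 (17.5%), against 1.62% of the 27025 genes of the promoter table and 1.26% of the 11118 genes of the expression table with a window. The list was drawn up to hold SRF-regulated genes, so a higher share than over all genes is built into its choice and is no finding about it. These 7 were Actg1, Srf, Arpc4, Lima1, Vcl, Myl6 and Cnn2. A match describes the letters only and is no evidence of SRF binding in these cells. The box has the same form on both strands, and the 5 boxes of Actg1, Srf, Lima1 and Vcl are printed because these genes return below as SRF itself and as members that differed after MTOB or between the genotypes. Of the 7 genes with a box, Srf, Arpc4, Myl6 and Cnn2 passed no test in the comparisons below. Whether a box goes with a change was not tested. Each stretch of 30 bases comes from RefSeq, reads 5′ to 3′ on the gene's strand, has the box in capitals, and was placed by an exact match in GRCm39.
Actg1, chr11:120239392-120239421, minus strand, 90 bases before the start: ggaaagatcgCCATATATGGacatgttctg
Lima1, chr15:99718058-99718087, minus strand, 47 bases before the start: ctcactttgtCCTTATAAGGctatcctgtt
Srf, chr17:46867151-46867180, minus strand, 82 bases before the start: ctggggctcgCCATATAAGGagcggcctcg
Srf, chr17:46867131-46867160, minus strand, 62 bases before the start: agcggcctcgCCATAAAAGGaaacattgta
Vcl, chr14:20979229-20979258, plus strand, 227 bases before the start: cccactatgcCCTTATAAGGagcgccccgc
In the GENCODE M39 annotation the Actg1 stretch lies in an exon of the canonical Actg1 transcript, which starts further upstream than the RefSeq one, and the other 4 stretches lie in no annotated exon. The Lima1 stretch lies inside the Lima1 gene (99676347 to 99773706, minus strand). It therefore precedes a RefSeq start within the gene and not the upstream end of the annotated gene.

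Expression values are TPM, transcript abundances that are scaled to transcript length and to a fixed total per sample, so that levels of different genes can be compared. TPM keeps no read depth. The deposited mean normalized counts summed to 6700000 over all genes, and among the members described most closely they ran from 86.0 for Zyx and 183 for Lima1 to 8018 for Actg1 and 26870 for Actb. Replicates of a group correlated at r = 0.983 to 0.987 across genes. Ctbp1 stood at 170 to 238 TPM in the 9 wildtype samples and at 19.7 to 31.5 TPM in the 9 dKO samples, and Ctbp2 at 87.8 to 96.9 and 68.5 to 81.9 TPM. The study reported loss of both proteins by western blot, which these RNA levels do not measure. All 8 macrophage markers examined were present and summed to 2283 to 2637 TPM per sample, while the fibroblast, smooth muscle and T cell markers in the table summed to at most 2.07 TPM. Single macrophage markers moved with the groups: the log2 fold change of Adgre1 with MTOB was 1.79 in wildtype (limma, adjusted p = 1.01e-05) and 0.46 in dKO cells, and between genotypes Adgre1 was at -1.59, -2.92 and -1.49 and Itgam at 1.57, 1.49 and 1.85 under vehicle, MTOB and 4-Cl-HIPP. Their part in the results below was not tested. In bulk RNA fewer cells of a type and less RNA per cell cannot be told apart. The study's methods call the samples biological triplicates without saying what was repeated. Nothing in the labels says that replicates came from separate cultures, so the p-values measure the spread between these samples, which may be technical. The libraries were unstranded, and 27 of the 43 members have exon bases that overlap an exon on the other strand, above 10% of their exon bases for 8 of them, including 32.9% of Cfl1, 31.9% of Pfn1, 24.6% of Vcl, 20.2% of Vasp, 15.4% of Zyx and 10.9% of Actg1, so reads of these partners cannot be told apart there. The partners of Zyx are not among the genes of the expression table.

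MTOB raised part of the actin machinery in both genotypes. A member was called changed at a Benjamini-Hochberg adjusted p under 0.05 in limma, adjusted over all 16383 genes tested, and fold changes are differences of log2(TPM + 1). In wildtype cells 14 of 43 members were higher and 0 lower, where 3.8% of all tested genes were higher and 3.46% lower. In dKO cells 11 were higher and 1 was lower, where 3.04% of all tested genes were higher and 3.54% lower. Fold changes above 1.5 were reached by Actg1 and Zyx in wildtype cells (background 1.56% of genes higher) and by Actg1, Zyx and Lima1 in dKO cells (background 1.15%). The median log2 fold change of the members was 0.11 in wildtype and 0.07 in dKO cells, beside -0.01 in each genotype over all tested genes. The shares over all tested genes, here and below, include genes down to a mean normalized count of 0.222 and were not matched for level. Many members are abundant, with mean normalized counts of 12596 for Lcp1, 8673 for Cfl1 and 6805 for Pfn1. Whether differences between members and these shares go with level was not tested.

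Actg1, which encodes cytoplasmic gamma-actin (ENSMUSG00000062825, GRCm39 chromosome 11, 120236512 to 120239617, minus strand), had the smallest adjusted p of the list in both genotypes. In wildtype cells its level was 653, 685 and 654 TPM under vehicle and 1499, 1433 and 1416 TPM under MTOB. In dKO cells it was 783, 801 and 837 TPM under vehicle and 1708, 1669 and 1709 TPM under MTOB. The MTOB and vehicle samples lay far apart in both genotypes, and 4-Cl-HIPP samples lay slightly under the vehicle samples at 590 to 626 TPM in wildtype and 723 to 743 TPM in dKO cells. The log2 fold change with MTOB was 1.12 ± 0.03 (SE) in wildtype and 1.07 ± 0.03 in dKO cells, a fold of 2.18 and 2.10 (limma, adjusted p = 6.78e-12 and 3.19e-11). The wildtype effect minus the dKO effect was 0.05, with a 95% confidence interval of -0.04 to 0.15 (adjusted p = 0.876).

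Actb, which encodes beta-actin (ENSMUSG00000029580, chromosome 5, 142888870 to 142892509, minus strand), rose far less in proportion from a level about 5 times as high. Wildtype samples held 3166, 3348 and 3366 TPM under vehicle and 3805, 3955 and 3764 TPM under MTOB. The dKO samples held 3233, 3323 and 3448 TPM under vehicle and 4184, 4069 and 4212 TPM under MTOB. Again no MTOB sample overlapped a vehicle sample, with log2 fold changes of 0.22 ± 0.03 (SE) and 0.32 ± 0.03 (limma, adjusted p = 0.000168 and 5.35e-06). The ratio of Actb to Actg1, both per length, was 4.96 ± 0.16 (SD, n = 3) under vehicle and 2.65 ± 0.11 under MTOB in wildtype cells, and 4.13 ± 0.02 and 2.45 ± 0.01 in dKO cells. Under 4-Cl-HIPP the ratio was 4.99 ± 0.17 in wildtype and 4.47 ± 0.07 in dKO cells. The coding sequences of the 2 genes are 1128 bases each and 88.7% identical, so how reads were divided between them rests on the quantification. Summed over the 43 members the level was 17911 ± 208 TPM under vehicle and 19830 ± 131 TPM under MTOB in wildtype cells, and 18656 ± 292 and 20833 ± 228 TPM in dKO cells, and without the 2 actins it was 13953 ± 96.9 and 14540 ± 97.5 TPM, and 14515 ± 157 and 14983 ± 144 TPM.

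Srf (ENSMUSG00000015605, chromosome 17, 46857767 to 46867119, minus strand), whose own promoter holds 2 of the boxes printed above, did not pass the test. Its wildtype samples held 69.3, 59.9 and 60.1 TPM under vehicle and 61.1, 73.5 and 69.7 TPM under MTOB, with overlap. Its dKO samples held 53.5, 61.8 and 70.4 TPM under vehicle and 75.1, 73.1 and 71.3 TPM under MTOB, without overlap. The log2 fold changes were 0.11 (95% interval -0.08 to 0.30, limma adjusted p = 0.605) and 0.25 (0.06 to 0.43, adjusted p = 0.128). The MRTF co-activator genes Mrtfa and Mrtfb were at log2 fold changes of -0.16 and 0.20 in wildtype and -0.03 and -0.23 in dKO cells, none past the test (adjusted p from 0.29 to 0.91).

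**Figure D1:**
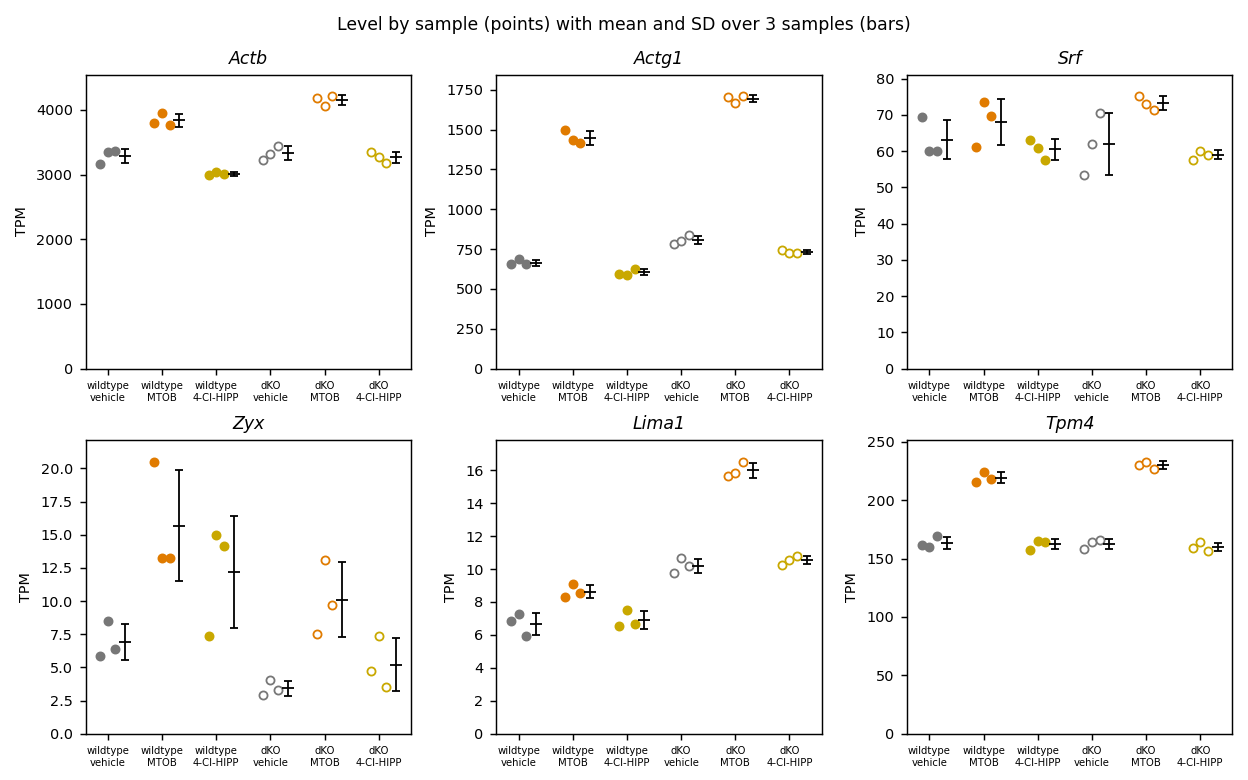
TPM of 6 genes (y axis, starting at 0) in each of the 18 samples, grouped by genotype and treatment on the x axis. Filled points are wildtype, open points dKO, and the black bars give the mean and SD of 3 samples. Actg1 and Tpm4 under MTOB sit above all other samples of their genotype, Srf groups overlap in wildtype cells, and Zyx varies most between replicates.

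Among the other members, the adhesion gene Zyx, coding for zyxin, a mechanosensitive protein of focal adhesions and stress fibres, had the largest log2 fold change in dKO cells at a low level. Its vehicle samples held 5.86, 8.48 and 6.42 TPM and its MTOB samples 20.5, 13.3 and 13.3 TPM in wildtype cells. In dKO cells they held 2.91, 4.05 and 3.29 TPM and 7.51, 13.1 and 9.70 TPM. No MTOB sample overlapped a vehicle sample of its genotype, and the log2 fold changes were 1.06 ± 0.28 (SE) and 1.31 ± 0.28 (limma, adjusted p = 0.03 and 0.00922). The wildtype call was lost without vehicle replicate 1 or 3 or MTOB replicate 1 or 2, and over the 6 libraries left out in turn its adjusted p ran from 0.0392 to 0.131. Lima1, coding for EPLIN, which bundles filaments and slows their disassembly, held 6.83, 7.24 and 5.96 TPM under vehicle and 8.27, 9.07 and 8.53 TPM under MTOB in wildtype cells. In dKO cells it held 9.79, 10.6 and 10.2 TPM and 15.6, 15.9 and 16.5 TPM. Both genotypes separated, with log2 fold changes of 0.33 ± 0.07 and 0.60 ± 0.07 (limma, adjusted p = 0.0104 and 8.09e-05), and the wildtype call was lost without vehicle replicate 3 (adjusted p = 0.0547). The difference between these effects was -0.27 with a 95% interval of -0.49 to -0.06 and did not pass the test (adjusted p = 0.63).

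The tropomyosins, which coat filaments and set which partners bind them, divided by gene. Tpm4 went from 162, 160 and 170 TPM under vehicle to 215, 224 and 218 TPM under MTOB in wildtype cells, and from 158, 164 and 166 to 230, 233 and 226 TPM in dKO cells. Its samples did not overlap, and the log2 fold changes were 0.42 and 0.50 (limma, adjusted p = 1.17e-06 and 1.72e-07). Tpm1 went up by 0.23 and 0.32 on the log2 scale (adjusted p = 0.00197 and 0.000121). Tpm3 stood at 0.07 and 0.02 and did not pass. Of the myosin II genes, the light chain gene Myl12a rose in wildtype cells (0.31) and was at 0.16 in dKO cells, the heavy chain gene Myh9 was at 0.03 and -0.06, Myl6 at 0.13 and 0.10, and Myl12b at -0.25 and -0.04. Myl12a and Myl12b are close paralogs, and how reads were split between them is uncertain. Tagln2 and Cnn2, of the calponin family, did not pass the test, and Cnn2 was at 0.12 to 0.32 TPM as a group mean.

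Of the 4 genes that bind or turn over monomers, Pfn1 and Cfl1 rose in each genotype, and of the 2 capping and severing genes, Gsn rose in wildtype cells. Pfn1, coding for profilin, which loads ATP-actin onto growing ends, went up on the log2 scale by 0.16 in wildtype cells and by 0.11 in dKO cells, and Cfl1, coding for cofilin, which severs old filaments, by 0.14 and 0.16. The monomer-sequestering thymosins went different ways without passing the test, with Tmsb4x at -0.10 and -0.11 and Tmsb10 at 0.48 and 0.33. Gsn, coding for the severing and capping protein gelsolin, went up by 0.21 in wildtype cells and was at 0.12 in dKO cells, and the capping gene Capg was at -0.03 and -0.01. The Pfn1 call in dKO cells was lost without vehicle replicate 2 or any of the 3 MTOB replicates (adjusted p up to 0.126), and the Gsn call in wildtype cells without vehicle replicate 2 or 3 or any of the 3 MTOB replicates (up to 0.0939).

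Filament-building genes were mixed. Of the 9 members of the Arp2/3 complex and its activators, Actr3, coding for the ARP3 subunit, rose by 0.32 and 0.31 (limma, adjusted p = 0.00015 and 0.00022), while Actr2, coding for the partner subunit ARP2, was at -0.03 and 0.00. Arpc5 rose in dKO cells (0.16) and was at 0.09 in wildtype cells, and Arpc1b, Arpc2, Arpc3 and Arpc4 lay between -0.11 and 0.02. Wasf2, coding for the WAVE2 activator of the complex, held 91.2, 81.6 and 95.3 TPM under vehicle and 73.4, 69.3 and 67.9 TPM under MTOB in wildtype cells. Its dKO samples held 83.4, 80.1 and 93.2 TPM and 58.3, 67.0 and 77.8 TPM. All MTOB samples lay under the vehicle samples in both genotypes, but the log2 fold change of -0.34 in each did not pass the test (adjusted p = 0.0513 and 0.0553). Vasp, an elongation factor of filament tips, rose by 0.23 and 0.20, and the formin gene Diaph1 rose in wildtype cells (0.15) and was at 0.10 in dKO cells. None of the 3 coronin genes, which bind the Arp2/3 complex and cofilin, passed. The Diaph1 call was lost without any 1 of its 6 libraries (adjusted p from 0.0636 to 0.12), and the Arpc5 call without vehicle replicate 1 or 2 or MTOB replicate 3 (up to 0.106).

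Most crosslinkers, membrane linkers and adhesion genes did not pass the test. Flna was at 0.17 and 0.16, Actn1 at 0.17 and 0.07, Actn4 at -0.03 and -0.08 and Lcp1 at 0.06 and -0.04 without passing, and Fscn1 was low, at 0.61 to 2.39 TPM as a group mean. Msn, coding for moesin, a linker of filaments to the membrane, rose in wildtype cells (0.14) and was at 0.00 in dKO cells, and Ezr, coding for ezrin, was at 0.12 and -0.01. Tln1, coding for the integrin activator talin, was the single member that fell, from 165, 179 and 178 TPM to 139, 154 and 159 TPM in dKO cells (log2 fold change -0.21, limma adjusted p = 0.0182), and was at 0.06 in wildtype cells. The Tln1 call was lost without vehicle replicate 2 or 3 or MTOB replicate 1 (adjusted p up to 0.0801). Vcl, coding for vinculin, was at 0.19 and 0.01 without passing.

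**Figure D2:**
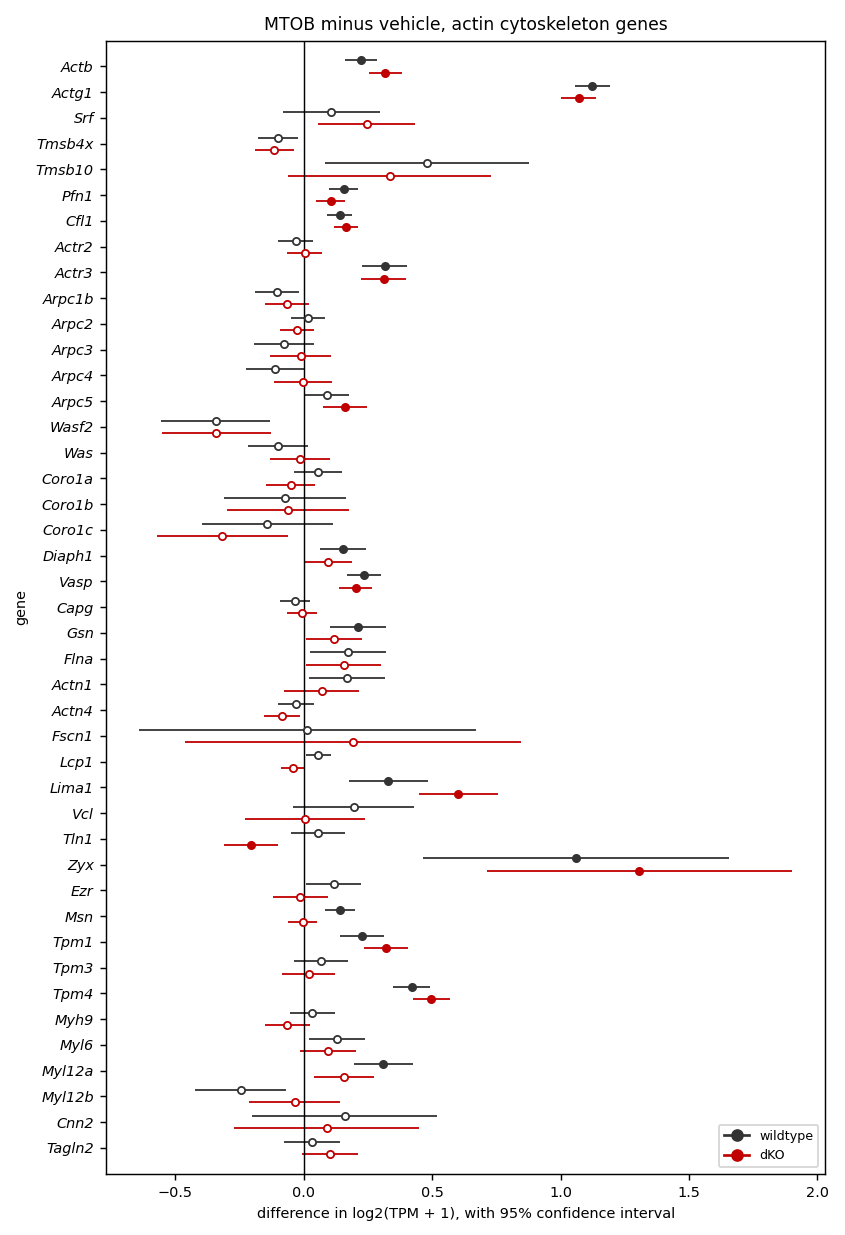
Difference in log2(TPM + 1) between MTOB and vehicle (x axis, with 95% confidence intervals) for the 43 members (y axis, in the order of the list), in wildtype cells in black and dKO cells in red. Filled points passed the test, and most red points lie near their black partner, with Actg1 and Zyx furthest to the right in both genotypes.

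The MTOB effects of the 2 genotypes, which share no samples, were set side by side. Past the test in both were 10 members, Actb, Actg1, Pfn1, Cfl1, Actr3, Vasp, Lima1, Zyx, Tpm1 and Tpm4, where 3.7% of all tested genes were. Past it in wildtype cells alone were 4, Diaph1, Gsn, Msn and Myl12a (background 3.56%), and in dKO cells alone 2, Arpc5 and Tln1 (background 2.88%). For none of the 43 did the test of the difference between the genotypes pass, with 5 at an unadjusted p under 0.05 and a smallest adjusted p of 0.311 in limma, beside 15 calls (0.0916%) and 1128 genes at an unadjusted p under 0.05 over all tested genes. The effect had the same sign in both genotypes for 35 of 43 members and for 62.2% of all tested genes. Across members the log2 fold changes correlated at r = 0.92, and at r = 0.81 without Actg1 and Zyx, as a description over genes that share libraries. In 14 members every MTOB sample lay above every vehicle sample of its genotype in both genotypes, where 4.23% of all tested genes did so.

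The count of members called with 4-Cl-HIPP at the adjusted limit was near the share over all tested genes and is no result about the members. At an unadjusted p under 0.05 the share was larger among members than over all tested genes in each genotype. That difference was not tested. In wildtype cells 0 of 43 passed in limma, 16 were at an unadjusted p under 0.05, and the smallest adjusted p was 0.0528 for Gsn, which held 46.2, 41.4 and 42.9 TPM under vehicle and 50.2, 54.7 and 51.1 TPM under 4-Cl-HIPP (log2 fold change 0.25). The background was 0.366% of all tested genes called and 1341 of 16383 genes at an unadjusted p under 0.05. In dKO cells 1 of 43 passed, where 0.501% of all tested genes did, and 8 of 43 members and 1388 of 16383 genes were at an unadjusted p under 0.05. That member was Myh9, coding for the heavy chain of non-muscle myosin IIA, with 172, 181 and 175 TPM under vehicle and 215, 198 and 198 TPM under 4-Cl-HIPP (log2 fold change 0.21, adjusted p = 0.034). Its samples did not overlap, and in wildtype cells they did not overlap either, at 151, 149 and 154 TPM and 165, 179 and 176 TPM (0.19, adjusted p = 0.0646). The Myh9 call was lost without any of the 3 vehicle replicates or 4-Cl-HIPP replicate 1 or 3 (adjusted p up to 0.147).

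The inhibitors were given at different doses, so their values are placed side by side and no comparison was made. Actg1 had log2 fold changes of 1.12 and 1.07 with MTOB at 1.5 mM and of -0.14 and -0.14 with 4-Cl-HIPP at 250 µM in wildtype and dKO cells. Actb had 0.22 and 0.32 with MTOB and -0.13 and -0.03 with 4-Cl-HIPP, whose 95% intervals were -0.19 to -0.07 and -0.09 to 0.03. Tpm4 had 0.42 and 0.50 with MTOB and -0.01 and -0.02 with 4-Cl-HIPP, with intervals of -0.09 to 0.06 and -0.10 to 0.05. Zyx had 1.06 and 1.31 with MTOB and 0.69 and 0.45 with 4-Cl-HIPP, and its 4-Cl-HIPP samples spread from 7.36 to 15.0 TPM in wildtype and from 3.50 to 7.40 TPM in dKO cells. Lima1 had 0.33 and 0.60 with MTOB and 0.04 and 0.04 with 4-Cl-HIPP. The median over members with 4-Cl-HIPP was 0.00 in both genotypes. No member passed the test of a difference in the 4-Cl-HIPP effect between genotypes in limma, with 2 at an unadjusted p under 0.05, and of all tested genes 0 (0%) passed, with 734 at an unadjusted p under 0.05.

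**Figure D3:**
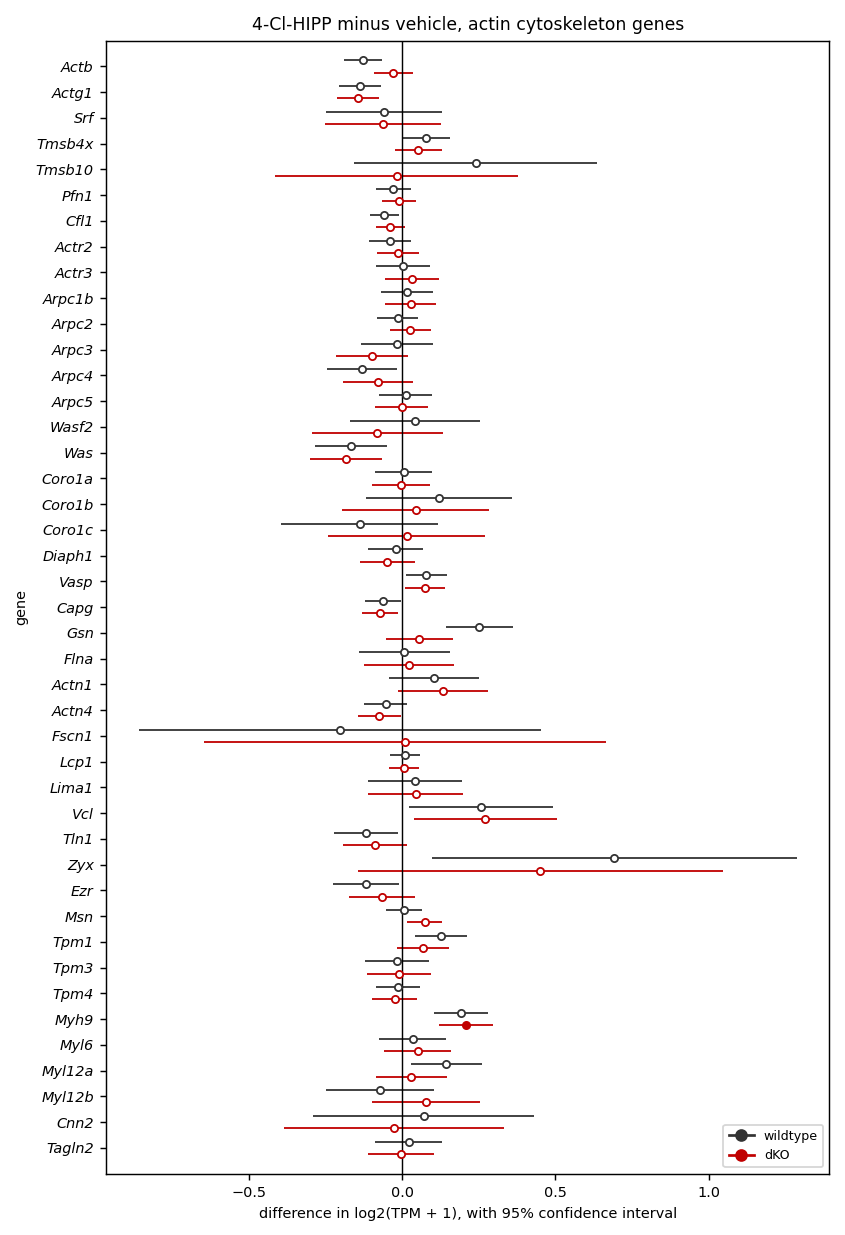
Difference in log2(TPM + 1) between 4-Cl-HIPP and vehicle (x axis, with 95% confidence intervals) for the 43 members (y axis), in wildtype cells in black and dKO cells in red. The single filled point, Myh9 in dKO cells, passed the test, and Zyx and Fscn1 have the widest intervals.

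Members that differed between the genotypes overlapped in part with those called with MTOB, and Actg1, Lima1 and Tpm1 passed in both MTOB comparisons and all 3 genotype comparisons. Under vehicle 14 of 43 members were higher in dKO than in wildtype cells and 0 lower, where 7.01% and 3.72% of all tested genes were. Under MTOB 10 were higher and 3 lower (background 6.98% and 4.18%), and under 4-Cl-HIPP 12 were higher and 1 lower (background 6.6% and 3.63%). Beyond a 1.5-fold difference were 3 higher members under each treatment, against 3.28%, 3.33% and 3.14% of all tested genes, and 1 lower member under 4-Cl-HIPP, against 1.58%. In 10 members all dKO samples lay above all wildtype samples under each of the 3 treatments, where 6.2% of genes did so, and in 0 members they lay below under each, where 3.45% did. The 3 genotype comparisons use separate samples.

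The 2 largest differences were in Gsn and Actn1. Gsn (chromosome 2, 35145967 to 35197917, plus strand) held 46.2, 41.4 and 42.9 TPM in wildtype and 144, 165 and 151 TPM in dKO cells under vehicle. Under MTOB it held 50.1, 50.5 and 50.7 TPM and 166, 160 and 172 TPM. Under 4-Cl-HIPP it held 50.2, 54.7 and 51.1 TPM and 159, 158 and 160 TPM. Each dKO sample was far above each wildtype sample, with log2 differences of 1.79, 1.70 and 1.60, each ± 0.05 (SE), and folds of 3.46, 3.24 and 3.02 (limma, adjusted p = 2.07e-12, 4.6e-12 and 1.03e-11). Actn1, coding for alpha-actinin-1, a crosslinker of stress fibres (chromosome 12, 80212233 to 80307547, minus strand), held 19.9, 21.0 and 20.8 TPM in wildtype and 61.6, 59.8 and 67.3 TPM in dKO cells under vehicle. Its log2 differences were 1.57, 1.47 and 1.59 under vehicle, MTOB and 4-Cl-HIPP, each ± 0.07 (SE), and its paralog Actn4 was at 0.13, 0.07 and 0.10, past the test under vehicle alone.

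Vcl held 13.1, 12.4 and 14.8 TPM in wildtype and 19.5, 21.8 and 21.0 TPM in dKO cells under vehicle, and under 4-Cl-HIPP it held 16.5, 15.1 and 17.0 TPM and 24.9, 26.0 and 24.8 TPM. Neither pair overlapped, whereas under MTOB the wildtype samples at 15.6, 13.1 and 18.1 TPM and the dKO samples at 17.9, 24.2 and 20.9 TPM did, by 1 sample of each. The log2 differences were 0.59, 0.41 and 0.61 under vehicle, MTOB and 4-Cl-HIPP (limma, adjusted p = 0.0017, 0.0247 and 0.00139), and the MTOB call was lost without MTOB replicate 1 or 2 of wildtype or 2 or 3 of dKO cells (adjusted p up to 0.123). Lima1 was higher in dKO cells by 0.55, 0.82 and 0.55. Tagln2, coding for transgelin-2, was higher by 0.44, 0.51 and 0.42, with group means of 217 to 222 TPM in wildtype and 295 to 318 TPM in dKO cells. Tpm1 was higher by 0.42, 0.51 and 0.36, Flna, coding for the filament crosslinker filamin A, by 0.31, 0.29 and 0.32, and Actg1 by 0.28, 0.23 and 0.27. Together with Gsn and Actn1 these are the 8 members that passed under all 3 treatments, where 5.97% of all tested genes did and 16.8% passed under at least 1, beside 20 members. Flna under MTOB was lost without wildtype MTOB replicate 2 or dKO MTOB replicate 3 (adjusted p up to 0.062).

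**Figure D4:**
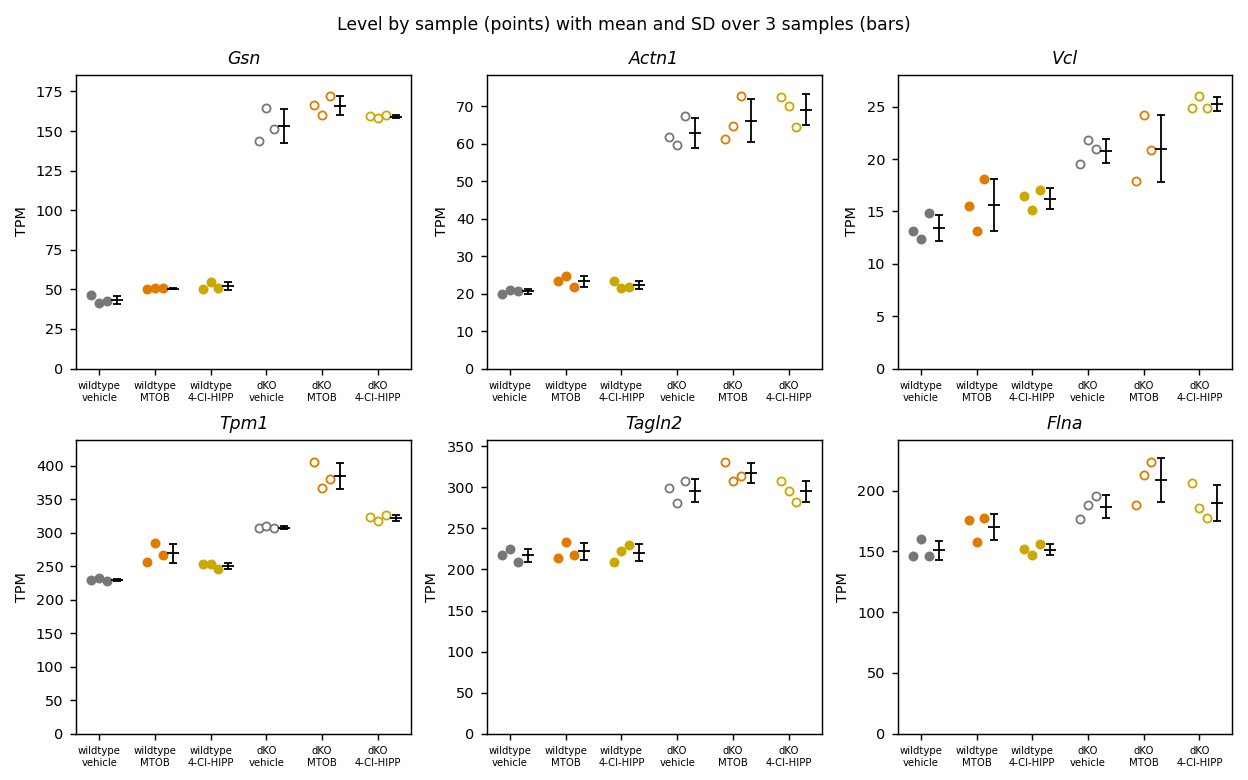
TPM of the 6 genes Gsn, Actn1, Vcl, Tpm1, Tagln2 and Flna (y axis, starting at 0) in each of the 18 samples, grouped by genotype and treatment on the x axis. Filled points are wildtype, open points dKO, and the black bars give the mean and SD of 3 samples. For Gsn and Actn1 the dKO samples form a band well above the wildtype samples under every treatment.

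The remaining calls between genotypes were small and differed by treatment. Under vehicle they were Myh9 (0.21), Tpm3 (0.18), Coro1a (0.15), Diaph1 (0.14), Actn4 (0.13) and Msn (0.10), all higher in dKO cells. Under 4-Cl-HIPP they were Myh9 (0.23), Tpm3 (0.18), Msn (0.16) and Actb (0.12). Under MTOB Myl12b (0.32) and Actb (0.11) were higher, and Tln1 (-0.21), Ezr (-0.18) and the leukocyte bundling gene Lcp1 (-0.09) were lower. Actb was at 0.02 under vehicle, where its sign turned to -0.00371 under median-of-ratios scaling. Zyx was lower in dKO cells, called under 4-Cl-HIPP alone, with log2 differences of -0.84, -0.59 and -1.08 under vehicle, MTOB and 4-Cl-HIPP (limma, adjusted p = 0.0735, 0.229 and 0.0198). Its 4-Cl-HIPP samples overlapped, and that call was lost without 4-Cl-HIPP replicate 2 or 3 of wildtype or 1 or 3 of dKO cells (adjusted p up to 0.1). Under vehicle the Coro1a call was lost without wildtype replicate 1 or 3 or dKO replicate 2 or 3 (adjusted p up to 0.188), the Diaph1 call without any of its 6 libraries (0.0708 to 0.177), and the Actn4 call without any of them but dKO replicate 3 (up to 0.109). The Msn call was lost without wildtype replicate 2 or dKO replicate 1 or 3 (up to 0.141) and the Tpm3 call without wildtype replicate 3 or dKO replicate 1 or 3 (up to 0.124). Under MTOB the Actb call was lost without replicate 1 or 3 of either genotype (up to 0.0891), Ezr without wildtype replicate 2 or 3 or dKO replicate 1 or 3 (up to 0.131), Myl12b without wildtype replicate 3 or dKO replicate 1 (up to 0.0862) and Lcp1 without wildtype replicate 1 (0.0781). Under 4-Cl-HIPP the Actb call was lost without wildtype replicate 1 or 3 or dKO replicate 1 (up to 0.0867) and Tpm3 without wildtype replicate 1 or 3 or dKO replicate 2 or 3 (up to 0.0879).

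**Figure D5:**
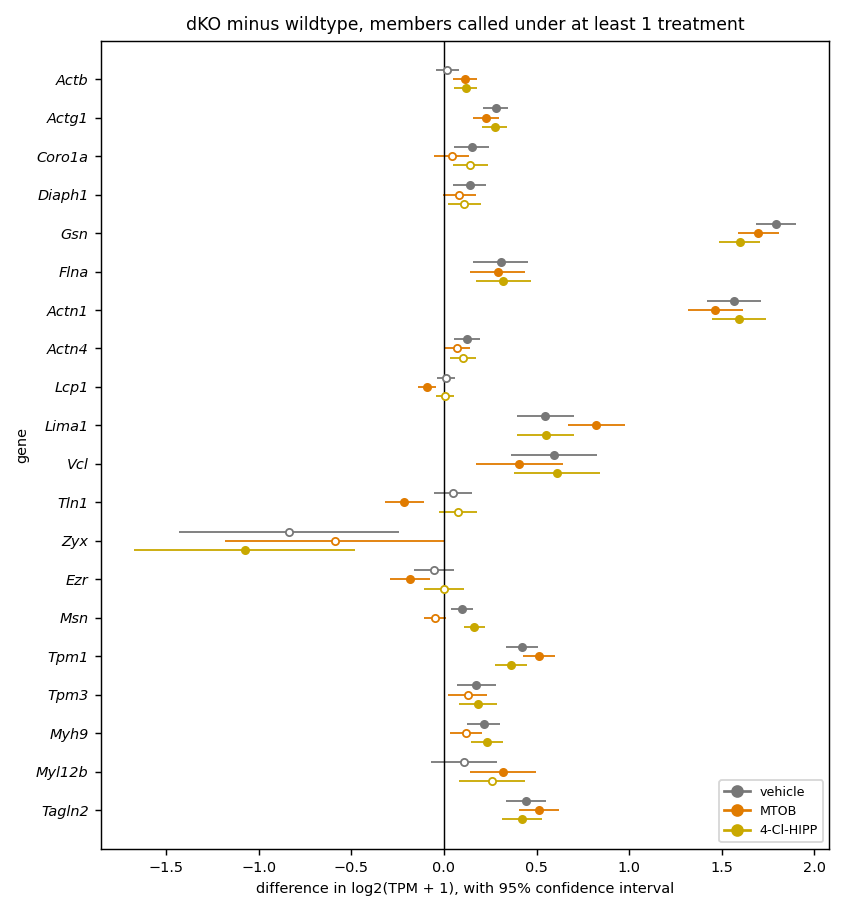
Difference in log2(TPM + 1) between dKO and wildtype cells (x axis, with 95% confidence intervals) for the 20 members called under at least 1 treatment (y axis), under vehicle in grey, MTOB in orange and 4-Cl-HIPP in yellow. Filled points passed the test, and Gsn and Actn1 stand near 1.5 and above while Zyx lies left of 0.

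Across the 4 inhibitor and 3 genotype comparisons, 16 of 43 members passed no test, where 78.3% of all tested genes passed none. They were Srf, both thymosins, Actr2, Arpc1b, Arpc2, Arpc3, Arpc4, Wasf2, Was, Coro1b, Coro1c, Capg, Fscn1, Myl6 and Cnn2. A p that misses the limit does not show that their levels were equal, and the low levels of Cnn2 and Fscn1 leave wide intervals.

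Other genes of the pathway were taken as 2 lists and described by counts. Of the SRF cofactors and other SRF targets, 25 were listed and 15 tested, 3 were higher with MTOB in wildtype and 0 lower, and 3 were higher and 1 lower in dKO cells, where 3.8% of all tested genes were higher and 3.46% lower in wildtype and 3.04% and 3.54% in dKO cells. Of 59 other actin-binding genes 57 were tested, with 10 higher and 5 lower in wildtype and 7 higher and 7 lower in dKO cells, against the same shares. Past both limits in both genotypes were Marcksl1, Myo1e and Plek of the actin-binding list and Filip1l of the SRF list.

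Marcksl1, coding for a MARCKS-like protein that binds filaments at the membrane, held 89.5, 85.9 and 94.3 TPM under vehicle and 425, 418 and 390 TPM under MTOB in wildtype cells. In dKO cells it held 116, 117 and 124 TPM and 363, 314 and 344 TPM. Its log2 fold changes were 2.18 and 1.51 (limma, adjusted p = 7.9e-12 and 1e-09), and their difference of 0.68 passed the test (adjusted p = 0.00885). Myo1e, a class I myosin that links filaments to the membrane, had 1.39 and 1.18, Plek, the protein kinase C substrate pleckstrin, 0.70 and 0.72, and Filip1l 0.61 and 0.61. With 4-Cl-HIPP these 4 genes lay between -0.15 and 0.18 without passing. The genes of these 2 lists past the test with 4-Cl-HIPP, named after their values were seen, were Pdlim7 (0.61 in both genotypes) and Fmnl3 (0.49 in wildtype and 0.57 in dKO cells) and, lower, Coro2a in wildtype cells (-1.14).

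Under vehicle, where 7.01% of all tested genes were higher and 3.72% lower, 3 of the 15 SRF list genes and 19 of the 57 actin-binding list genes were higher in dKO cells, and 0 and 5 were lower. Under MTOB, beside 6.98% and 4.18% of all tested genes, the counts were 2 higher and 1 lower, and 16 higher and 6 lower. Under 4-Cl-HIPP, beside 6.6% and 3.63%, they were 2 higher and 1 lower, and 17 higher and 3 lower.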

How the data were processed

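RNA-seq of 18 samples of the J774.1 cell line was analysed, grouped by the labels into 2 genotypes and 3 treatments with 3 samples each. The authors quantified reads against the GENCODE M28 transcriptome of GRCm39 with Salmon 1.9.0 and normalized with DESeq2 1.44.0. The deposited table gives a TPM value per gene and sample, which summed to 999766 to 999896 per sample, so depth is unknown, and a deposited signal column of the mean normalized count per gene. Deposited log2 fold changes and p-values of the authors' own comparisons were not used. The molecule was labelled as polyA RNA although the study describes removal of rRNA, and the kit was unstranded. The 10% of genes with the lowest mean normalized count, under 0.222, were left out. The remaining 16383 were fitted with limma 3.58.1 in R 4.3.3 on log2(TPM + 1), with 6 group means and a variance trend on log2 mean normalized count, and the script was tested on simulated data. A gene past an adjusted p of 0.05 was called, and a 1.5-fold limit was given beside it. The pseudocount understates changes of low genes. Named were Actb, Actg1, Srf, members past the limits, and list genes past both limits with MTOB in both genotypes. The members and lists were chosen with earlier results of these data known. 1 list of other pathway genes is not reported here. Alternatives were another pseudocount, filter, scaling, a replicate block, no trend, only the compared groups, and each sample left out. Positions are from GENCODE M39 (GRCm39). Plots used matplotlib.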

Additional observations from a re-analysis of the deposited data

Results flagged for a closer look

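Among the members and the SRF and actin-binding lists, Marcksl1 was the single gene whose MTOB effect differed between genotypes by the test of the difference itself. Its wildtype effect minus dKO effect was 0.68 on the log2 scale (limma, adjusted p = 0.00885). The macrophage markers, such as Adgre1, are outside these lists. It rose in both genotypes and in 3 of 3 MTOB samples of each.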

How the results depend on the processing

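The counts of members called with MTOB in wildtype cells, between genotypes under 4-Cl-HIPP and for both differences in effect stayed within 1.5 times of the reported counts in every alternative run. With MTOB in dKO cells 12 members were called, and 7 when the fit held the compared groups alone, where the calls over all genes went from 1078 to 305 with fewer samples in the fit. In that fit the MTOB calls of Pfn1, Gsn, Lima1, Zyx and Tpm1 in wildtype cells and of Pfn1, Arpc5, Vasp, Tln1 and Zyx in dKO cells were lost. With 4-Cl-HIPP in wildtype cells 0 members were called, 1 with a pseudocount of 0.1 and 2 when genes averaging under 10 normalized counts were left out. With 4-Cl-HIPP in dKO cells 1 was called, 2 under median-of-ratios scaling, and 0 with a replicate block, without the variance trend or with the compared groups alone. Under vehicle 9 members differed between genotypes without the trend, against 14, and under MTOB 6 with the compared groups alone, against 13. Leaving out 1 sample at a time gave 10 to 13 members for MTOB in wildtype, 9 to 12 in dKO, 0 to 1 for 4-Cl-HIPP in each genotype, 10 to 11, 9 to 12 and 11 to 13 between genotypes under vehicle, MTOB and 4-Cl-HIPP, and 0 to 0 for the differences in effect. The replicate block, in which the samples share only a number (deviations from the group means correlated at r = -0.0556 to 0.0791 between same-numbered samples), otherwise gave 14, 13 and 0 members for the inhibitor comparisons and 14, 14 and 15 between genotypes. Of 67 calls of single members, 37 were kept in every alternative and 22 were lost without at least 1 sample. Uncalled in the main fit, Srf with MTOB in dKO cells passed in 1 alternative (limma, lowest adjusted p = 0.0354). Actg1 with 4-Cl-HIPP in dKO cells also passed in 1 (limma, lowest adjusted p = 0.0489). Signs turned only in uncalled values. For Srf with 4-Cl-HIPP the log2 fold change ran from -0.0943 to 0.00843 over the samples left out in wildtype cells and from -0.161 to 0.0342 in dKO cells, above 0 without wildtype vehicle replicate 1 and without dKO vehicle replicate 3. Between genotypes under vehicle, Srf ran from -0.128 to 0.0666, above 0 without wildtype replicate 1 (0.0352) or dKO replicate 1, and Actb from -0.0102 to 0.0402, below 0 without wildtype replicate 1 or dKO replicate 3 (-0.00632), and at -0.00371 under median-of-ratios scaling. Rescaling TPM without both actins, added after the data were seen, changed no count of members. The cause of these changes was not tested.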
